A study of Mus musculus with 8 samples.

Results

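A set of 10 genes of the circadian clock was followed in neonatal cardiomyocytes (NCMs) of mice exposed to diesel exhaust before birth: Clock, Npas2, Per2, Per3, Cry1, Cry2, Nr1d1, Nr1d2, Dbp and Tef. They were taken by symbol from a table of 27179 genes, all 10 were present, and all 10 were among the 14966 genes that passed the filter on low counts. RNA-seq was performed on NCMs of male C57Bl/6J offspring collected on postnatal day 0, with 1 heart per library. Before freezing, hearts were dissociated by enzyme and the cells were incubated in medium with serum so that fibroblasts would attach to the plate. The part of this step in the levels of clock genes was not tested. The dams breathed either filtered air (FA) or diesel exhaust (DE) from embryonic day 0.5 until late gestation, for 6 hours a day from 9 am to 3 pm, on 5 days a week, and were housed under 12 hours of light and 12 hours of dark. DE was held at 300 μg/m3 of fine particles (PM2.5) while exposure ran. The 4 FA libraries (replicates 2, 3, 4 and 6) and the 4 DE libraries (replicates 1, 3, 5 and 7) held between 17943024 and 39839737 counted fragments, and the methods state 3 hearts per group without naming them, so all 8 were used. The submitters' names of all FA samples and of DE replicates 1 and 7 begin with 11, those of DE replicates 3 and 5 with 12, and what this prefix stands for is not given in the sources used here. The hour of the day at which hearts were taken is not given there either.

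The circadian clock is a loop of transcription factors that runs in nearly every cell and sets daily rhythms of gene expression. CLOCK, or its relative NPAS2, pairs with BMAL1 (the product of Arntl) and turns on genes with E-boxes in their promoters, among them the Per and Cry genes, whose proteins return to the nucleus and inhibit the pair. In a second loop the nuclear receptors REV-ERBα and REV-ERBβ (Nr1d1 and Nr1d2) repress Arntl through elements that the ROR receptors activate, and the PAR bZIP factors DBP and TEF drive output genes through D-boxes. In the adult heart this machinery times fuel use and contraction, and in rodents rhythms strengthen gradually around and after birth.

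Promoter stretches with letters of motifs known for these factors are shown for the clock genes whose window held one of the motifs searched. Windows ran from 250 bases before to 50 bases after a RefSeq transcription start (GRCm38.p6). Tef is shown by a single window, and a stretch of Per1, a gene of the pathway described further on, is added. Motifs were the E-box CACGTG, the D-box TTATGTAA or TTATGCAA, and the REV-ERB and ROR element (RORE), on both strands, and motif letters are in capitals with 25 bases on either side, except that the stretch of Per1 ends at the base before the start.
Per3, chr4:151044791-151044895, minus strand: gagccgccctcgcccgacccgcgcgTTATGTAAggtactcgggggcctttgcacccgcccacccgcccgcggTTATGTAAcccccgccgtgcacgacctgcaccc
Cry1, chr10:85185084-85185139, minus strand: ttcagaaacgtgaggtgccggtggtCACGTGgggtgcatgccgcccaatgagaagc
Tef, chr15:81802521-81802576, plus strand: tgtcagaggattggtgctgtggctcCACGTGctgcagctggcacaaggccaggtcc
Per1, chr11:69098758-69098948, plus strand: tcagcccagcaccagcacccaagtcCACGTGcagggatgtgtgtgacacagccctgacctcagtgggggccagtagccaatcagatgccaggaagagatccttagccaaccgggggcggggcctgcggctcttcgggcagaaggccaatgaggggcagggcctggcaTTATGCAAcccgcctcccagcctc

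Of the 10 clock genes, 9 matched the promoter table, with 12 windows in all. An E-box stood in 3 of the 12 windows, 1 of Cry1 (first base 60 bases before the start) and 2 of Tef (127 and 138 bases before their starts), against 7.15% of the 32851 windows of all genes. A D-box stood in 1 window, where Per3 held 2 copies at 205 and 158 bases before the start, against 1.66% of all windows. The RORE was found in 0 of the 12 windows and in 0.384% of all windows. The 3 windows of Clock held none of the motifs. These matches describe letters in short windows and no binding was measured.

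Among the clock genes, only Clock passed the test between exposure groups. Its level was lower in DE, at 0.583 of that in FA, while Nr1d1, Dbp, Tef and Per2 lay within 4% of their FA level and Per3, Nr1d2, Npas2, Cry1 and Cry2 differed by amounts that did not pass. Counts were normalized for library size (CPM, counts scaled to a common library total with TMM factors) and compared by edgeR's quasi-likelihood test, and a gene was called when its p-value, adjusted by Benjamini-Hochberg over all 14966 tested genes, did not exceed 0.05 and the groups differed by at least 25%. One clock gene of 10 was called lower in DE, where 2.22% of all tested genes were, and 0 were called higher, where 3.58% of all tested genes were. At an unadjusted p-value under 0.05 there were 3 clock genes, Clock and Per3 lower and Cry2 higher, where 25.6% of all tested genes were under it. The log2 fold change was negative in 5 of the 10 and positive in the other 5, with a median of -0.06 beside 0.00 over all tested genes. In 1 clock gene, Cry2, the 4 DE libraries all lay above the 4 FA libraries, as they did in 7.43% of all tested genes, and in 0 clock genes did they all lie below, as they did in 7.25%.

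**Figure D1:**
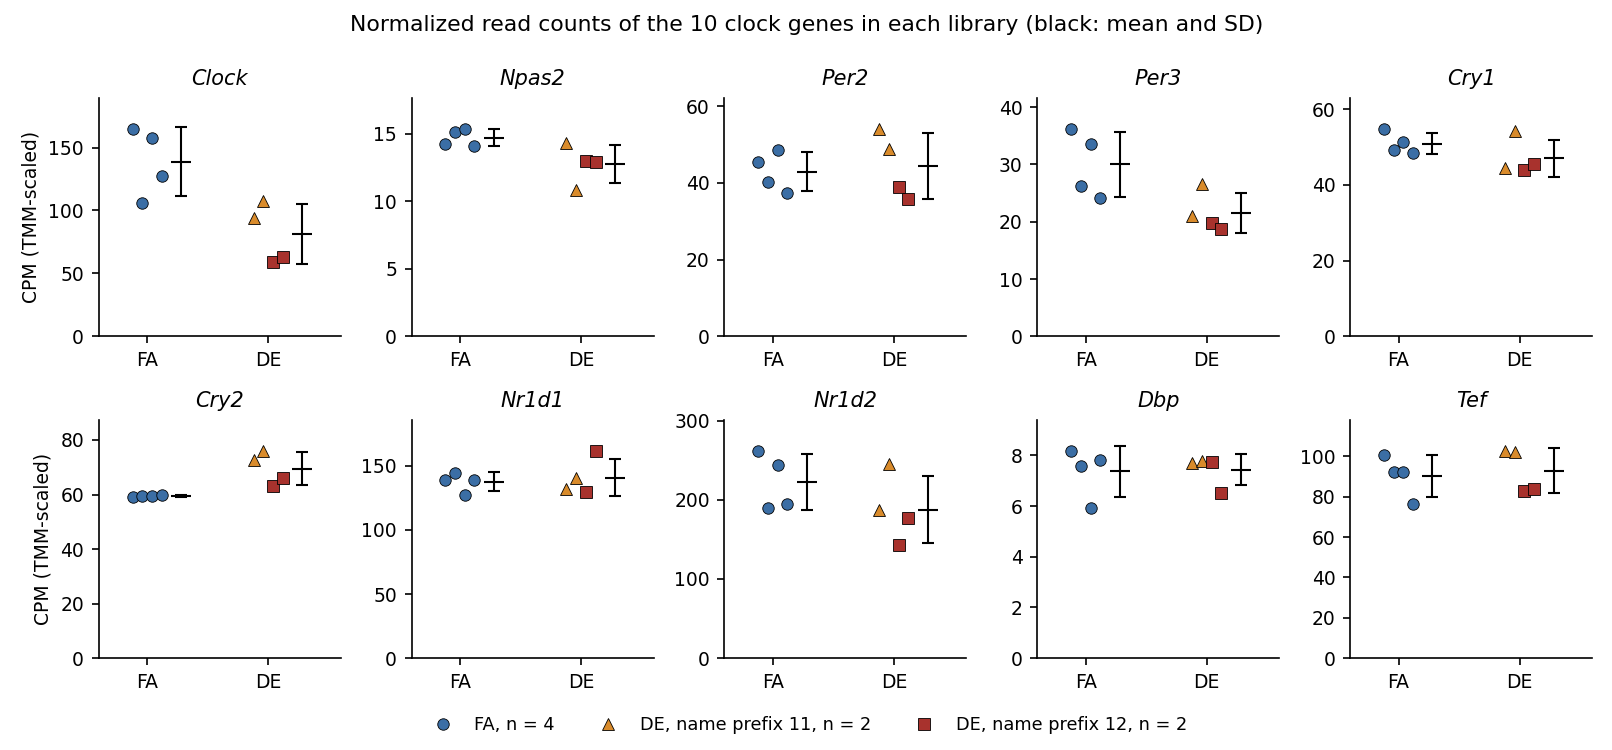
Level of each of the 10 clock genes (y axis, TMM-scaled CPM, from 0) in the 4 FA and 4 DE libraries (x axis), with circles for FA, triangles for DE of name prefix 11, squares for DE of name prefix 12, and black bars for the group mean and SD. Clock is lowest in the squares, at 59.1 and 63.4 CPM, the FA points of Cry2 lie within 1 CPM of each other, and the points of Nr1d1 and Dbp mix between groups.

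Clock (Entrez 12753, chr5:76209868-76305603, minus strand, GRCm38) encodes the DNA-binding activator that pairs with BMAL1. It was counted at 164.6, 105.8, 157.8 and 127.3 CPM in FA replicates 2, 3, 4 and 6, and at 94.4, 59.1, 63.4 and 107.7 CPM in DE replicates 1, 3, 5 and 7. FA replicates 2 and 4 were the highest and the DE libraries of prefix 12 the lowest, and the groups overlapped by a narrow margin, since DE replicate 7 exceeded FA replicate 3. Mean levels were 138.9 ± 27.4 CPM for FA against 81.1 ± 23.7 CPM for DE (SD over 4 libraries). Clock fell by 0.78 on the log2 scale (SE 0.20, edgeR adjusted p = 0.048, 95% interval -1.22 to -0.33). The call was lost in 10 of 21 alternatives, with Clock still lower in DE, among them when the 4 FA libraries were compared with the 2 DE libraries of prefix 11 (-0.46, adjusted p = 0.216), when FA replicate 2, 4 or 6 or DE replicate 3 or 5 was left out (adjusted p between 0.064 and 0.144, with the log2 difference between -0.82 and -0.65), and with RLE factors (adjusted p = 0.0501).

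Clock has the longest exons of the 10 genes (13727 bases in their union, 9744 in the longest transcript) and the lowest GC content (0.409). Libraries differed in how their counts moved with GC content and exon length, taken here and for the offsets from the longest transcript. Relative to the mean of all libraries, the log2 level rose by 0.16 and 0.14 per doubling of exon length in FA replicates 2 and 4, where Clock was highest, and fell by 0.11 and 0.16 in DE replicates 3 and 5, where Clock was lowest. In the other 4 libraries the slope lay between -0.07 and 0.05. DE replicates 3 and 5 also had the steepest rise with GC content, by 0.17 and 0.12 per 10 percentage points. When each library's trend with length and GC content was taken out by offsets, over the 13846 tested genes with both properties, Clock stood at 125.3, 122.5, 123.4 and 128.0 CPM in FA replicates 2, 3, 4 and 6 and at 84.9, 78.3, 85.9 and 96.5 CPM in DE replicates 1, 3, 5 and 7. The groups then did not overlap, and the spread of Clock within groups was 0.09 on the log2 scale, beside 0.37 without offsets. The difference was smaller, at -0.53, and its SE was also smaller (0.08, edgeR adjusted p = 0.0020). With offsets 2 of the 10 clock genes were called lower in DE, Clock and Per3, beside 5.40% of all genes in that fit. The share of all genes whose groups did not overlap with offsets was not determined. What set the length and GC trends apart between libraries was not tested.

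**Figure D2:**
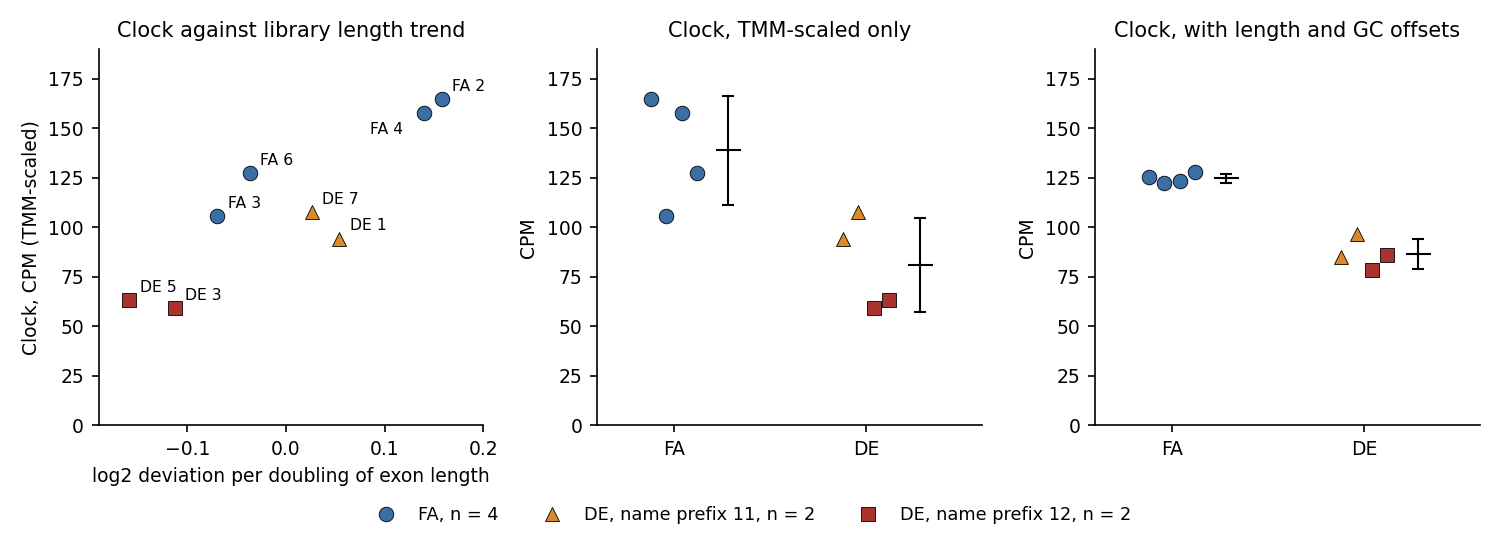
Left, level of Clock (y axis, TMM-scaled CPM) in the 8 libraries against the library's log2 deviation per doubling of exon length in the longest transcript (x axis). Middle and right, Clock in FA and DE (CPM, from 0; bars, mean and SD, n = 4) without and with offsets for length and GC content, with circles for FA, triangles and squares for DE of prefix 11 and 12. The FA points close up to 122.5 to 128.0 CPM with offsets, and the DE points lie below them, at 78.3 to 96.5 CPM.

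Markers of other cell types also moved with the groups. All 8 fibroblast markers had a positive log2 fold change, 2 of them were called (Col1a1 and Dcn), and their summed level ran from 2008 to 3461 CPM in FA and from 3655 to 6177 CPM in DE. The 10 cardiomyocyte markers summed to between 66493 and 72345 CPM in FA and between 55969 and 65041 CPM in DE, and 9 of them had a negative log2 fold change, of which 2 were called. Myh7 was the exception and was called higher. All markers of both lists were detected in these libraries. The log2 fold change was also positive in 6 of 6 tested erythroid markers, with 1 called (Slc4a1), and their sums overlapped, at 759 to 1880 CPM in FA and 1209 to 2022 CPM in DE. It was positive in 6 of 7 endothelial markers, with 0 called, 3 at an unadjusted p under 0.05 and sums of 905 to 1192 CPM in FA and 961 to 1431 CPM in DE. Smooth muscle and pericyte markers summed to 1142 to 1784 CPM in FA and 810 to 1228 CPM in DE, although 5 of the 7 had a positive log2 fold change (median 0.13). Acta2, which made up most of each sum, was lower in every DE library than in any FA library (edgeR adjusted p = 0.056). The smooth muscle and pericyte, leukocyte, atrial and mesothelial lists had 0 calls each, with 1 marker at an unadjusted p under 0.05 in each list, by the same edgeR test. Fewer cells of a type and less RNA per cell cannot be told apart in bulk samples, and the part of these shifts in the level of Clock or of any other clock gene was not tested.

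Npas2 (Entrez 18143, chr1:39193702-39363240, plus strand) can stand in for CLOCK as the partner of BMAL1. Its values ran from 14.1 to 15.3 CPM in FA and were 14.3, 13.0, 12.9 and 10.9 CPM in DE replicates 1, 3, 5 and 7. Only DE replicate 1 reached the FA range, and the difference did not pass the test (log2 fold change -0.20, SE 0.11, edgeR adjusted p = 0.286, 95% interval -0.44 to 0.05). With length and GC offsets the groups did not overlap, with Npas2 at 14.1 to 15.4 CPM in FA and 11.2 to 13.7 CPM in DE, and it was again not called. How many of all genes had no overlap with offsets was not determined.

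The Per and Cry genes encode the repressors of the first loop, and none of the 4 passed the test, although they did not behave alike. Per3 (Entrez 18628, chr4:150997018-151044707, minus strand) stood at 36.1, 26.2, 33.5 and 24.1 CPM in FA replicates 2, 3, 4 and 6 and at 21.0, 19.7, 18.8 and 26.5 CPM in DE replicates 1, 3, 5 and 7. DE replicate 7 lay among the FA values and the other 3 DE libraries lay below them all. The log2 fold change was -0.49 (SE 0.15, edgeR adjusted p = 0.084), with a 95% interval of -0.82 to -0.15. Per3 was called lower by DESeq2 (adjusted p = 0.043), by the likelihood ratio test (0.040), with length and GC offsets (0.038) and when DE replicate 7 was left out (0.049). Over all 21 alternatives its adjusted p lay between 0.038 and 0.532, and its exons are the longest after Clock of the 10 genes (9608 bases).

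Per2 (Entrez 18627, chr1:91415977-91459351, minus strand) was at 45.3, 40.3, 48.6 and 37.4 CPM in FA replicates 2, 3, 4 and 6 and at 54.0, 38.8, 35.9 and 48.9 CPM in DE replicates 1, 3, 5 and 7. The highest and the lowest library were both DE, and they split by the prefix of the name. The log2 fold change was 0.05 (SE 0.14, edgeR adjusted p = 0.859, 95% interval -0.26 to 0.36). It was 0.26 both with the prefix as a term and within prefix 11, and Per2 was called in neither fit.

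Cry2 (Entrez 12953, chr2:92403646-92434085, minus strand) was nearly constant in FA, at 58.9, 59.3, 59.4 and 59.8 CPM in replicates 2, 3, 4 and 6, and lay at 72.8, 63.0, 66.1 and 76.0 CPM in DE replicates 1, 3, 5 and 7. Every DE library was above every FA library, by at least 3 CPM, yet the difference was small (1.17-fold, log2 fold change 0.23, SE 0.09, 95% interval 0.03 to 0.43) and did not pass over all genes (unadjusted p = 0.029, edgeR adjusted p = 0.149). With length and GC offsets the groups overlapped, since DE replicate 3 stood at 58.4 CPM, under the FA range of 59.6 to 62.4 CPM. Cry1 (Entrez 12952, chr10:85131700-85185054, minus strand) ran from 48.3 to 54.7 CPM in FA and was 44.5, 43.9, 45.4 and 54.2 CPM in DE replicates 1, 3, 5 and 7. DE replicate 7 stood apart from the other 3 DE libraries, which lay below all FA libraries, and the log2 fold change was -0.12 (SE 0.10, edgeR adjusted p = 0.485).

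Nr1d1 (Entrez 217166, chr11:98767932-98775377, minus strand) and Nr1d2 (Entrez 353187, chr14:18204056-18239106, minus strand) encode the REV-ERB repressors, and Nr1d1 is among the most strongly rhythmic clock genes in adult tissues. Here Nr1d1 was at 139.2, 144.6, 127.0 and 139.0 CPM in FA replicates 2, 3, 4 and 6 and at 131.7, 129.7, 161.6 and 140.1 CPM in DE replicates 1, 3, 5 and 7. The highest value was 1.27 times the lowest over the 8 libraries and the groups overlapped, with DE replicate 5 above and FA replicate 4 below all other libraries. The log2 fold change was 0.03 (SE 0.10, edgeR adjusted p = 0.854), with a 95% interval of -0.18 to 0.25. Nr1d2 was more variable, at 261.8, 190.1, 244.0 and 194.4 CPM in FA replicates 2, 3, 4 and 6 and at 186.8, 142.6, 176.8 and 244.8 CPM in DE replicates 1, 3, 5 and 7. The 2 highest FA libraries were those that were highest for Clock and Per3, and the lowest value was in DE replicate 3. Its log2 fold change was -0.25 (SE 0.16, edgeR adjusted p = 0.367). Its GC content (0.418) is next to that of Clock, and with offsets its difference was -0.15. It was -0.05 both with the prefix as a term and within prefix 11, and -0.41 to -0.14 with 1 library left out, and it was called in none of these.

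Dbp (Entrez 13170, chr7:45705100-45710203, plus strand) and Tef (Entrez 21685, chr15:81802673-81826863, plus strand) encode output factors of the PAR bZIP family. Dbp, which swings widely over the day in adult tissues, was at 8.18, 7.57, 5.93 and 7.82 CPM in FA replicates 2, 3, 4 and 6 and at 7.69, 7.75, 6.53 and 7.78 CPM in DE replicates 1, 3, 5 and 7. One library of each group, FA replicate 4 and DE replicate 5, lay below the rest, and the group means were equal within error (7.37 ± 1.00 and 7.44 ± 0.60 CPM, SD, n = 4 each). The log2 fold change was 0.00 (SE 0.14, edgeR adjusted p = 0.987, 95% interval -0.29 to 0.30). Dbp rested on 105 to 306 counts per library, the fewest of the 10 genes. Tef was at 76.2 to 100.6 CPM in FA and at 102.7, 82.9, 83.9 and 102.2 CPM in DE replicates 1, 3, 5 and 7. The DE libraries of prefix 12 were lower than those of prefix 11, and the log2 fold change was 0.04 (SE 0.12, edgeR adjusted p = 0.853).

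**Figure D3:**
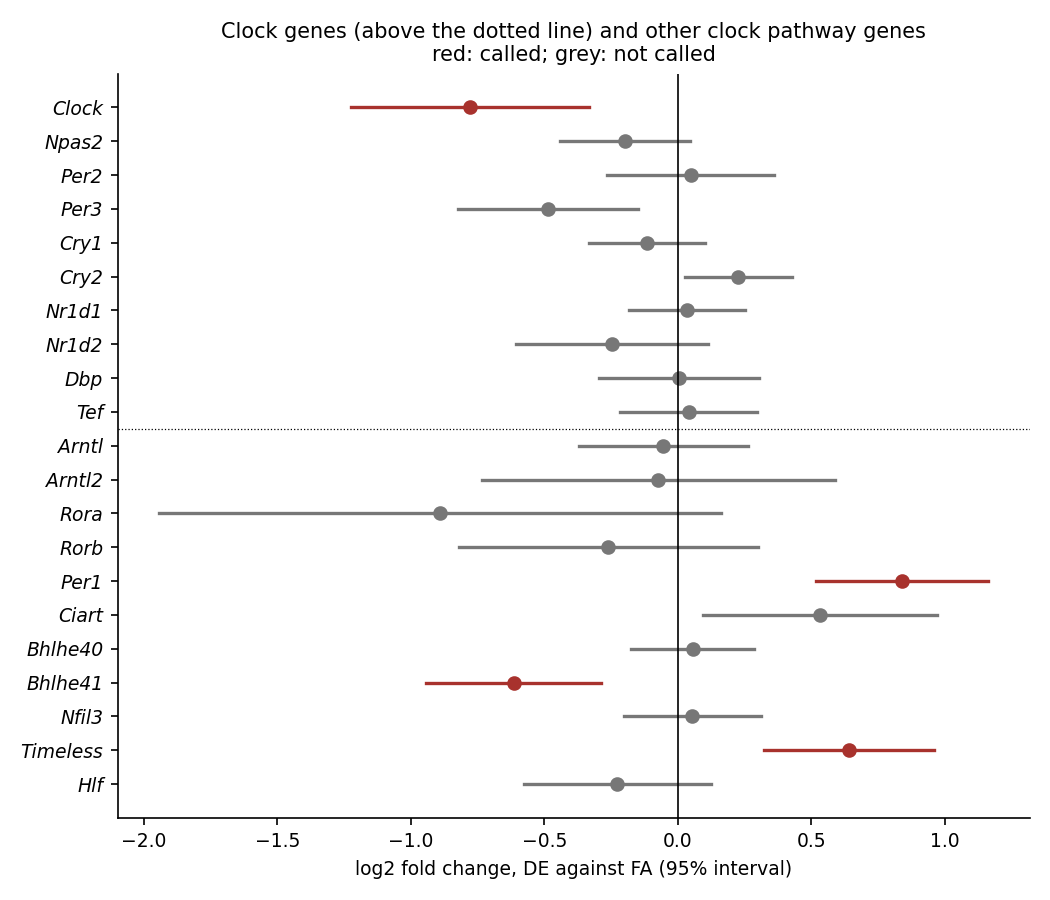
Log2 fold change of DE against FA (x axis) with its 95% interval from edgeR's quasi-likelihood fit for the 10 clock genes (above the dotted line) and 11 other genes of the clock pathway (y axis), in red where called. Of the clock genes, Clock at -0.78 is red, and of the others Per1, Bhlhe41 and Timeless are red, on both sides of 0.

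The DE libraries of prefix 12 were set against those of prefix 11 in a model of 3 groups. Of the 10 clock genes 0 were called, beside 2.11% of 15484 tested genes, and 3 had an unadjusted p under 0.05, beside 23.0% of all tested genes. These were Clock, with a log2 difference of -0.72 (edgeR adjusted p = 0.068), Per2, with -0.46 (0.098), and Nr1d2, with -0.43 (0.202). In all, 8 of the 10 clock genes had a negative log2 difference there, Npas2 and Nr1d1 being the other two. No FA library carries the prefix 12, so within FA the comparison could not be made.

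Compared per length, the REV-ERB genes were the most abundant of the 10. On the scale of CPM per kilobase of exon, Nr1d1 averaged 45.2 ± 3.54 and Nr1d2 37.9 ± 7.55 (SD, n = 8 libraries of both groups). The values of these 2 overlapped between libraries, and both lay above Cry1 (14.6 ± 1.26) in every library. Cry1 in turn lay above Tef (11.6 ± 1.26), while Tef, Cry2 (10.2 ± 1.06), Clock (8.01 ± 2.83) and Per2 (7.46 ± 1.11) each overlapped the next. By this length the place of Clock differed between the groups, since it averaged 10.1 in FA, above Cry2 (9.39), and 5.91 in DE, below Per2 (7.58). Below a gap, Npas2 (2.87 ± 0.30), Per3 (2.68 ± 0.66) and Dbp (2.47 ± 0.26) were lowest and overlapped as well. With the length of the longest transcript in place of all exons, Nr1d1 and Nr1d2 were again the highest, followed by Tef, Cry2 and Cry1, and Per3, Dbp and Npas2 were the last 3.

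**Figure D4:**
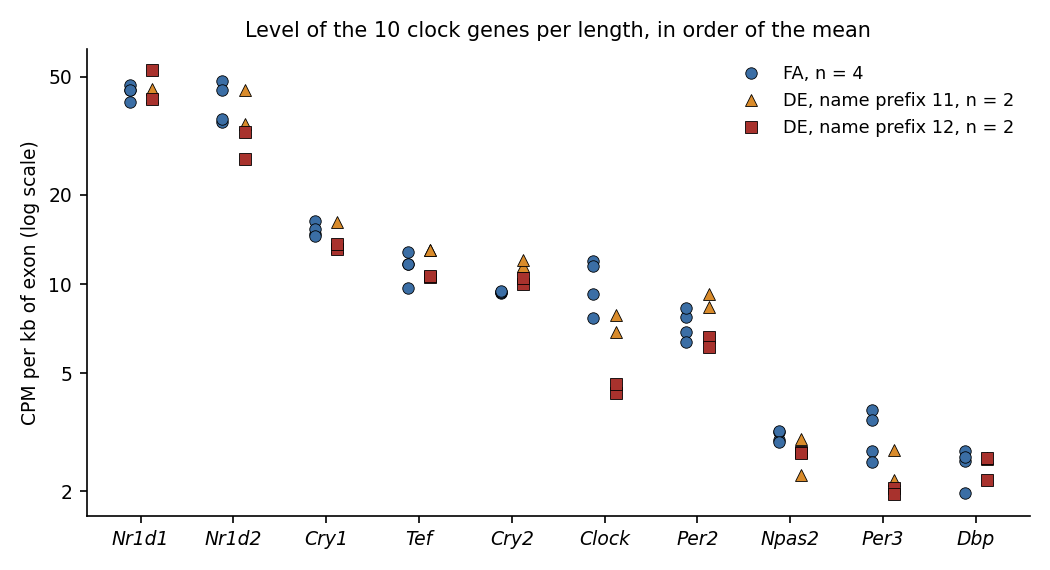
CPM per kilobase of exon (y axis, log scale) of the 10 clock genes in the order of their mean (x axis), with 1 point per library, circles for FA, triangles and squares for DE of prefix 11 and 12. Nr1d1 and Nr1d2 lie above 26 in every library and Npas2, Per3 and Dbp below 4, with the other 5 genes between.

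How far a clock gene varied between hearts of the same group differed from gene to gene. The SD within groups on the log2 scale was 0.09 for Cry2, 0.11 for Cry1, 0.12 for Nr1d1, 0.13 for Npas2, and 0.17 for both Tef and Dbp, beside a median of 0.22 over all tested genes. It was 0.23 for Per2, 0.25 for Per3, 0.28 for Nr1d2 and 0.37 for Clock. This order changed with length and GC offsets, where the spread was lowest for Clock (0.09) and highest for Dbp (0.25), and that of Cry2 was 0.14. Over the 8 libraries the highest value was 1.27 times the lowest for Nr1d1 and 2.78 times the lowest for Clock. In the order of tested genes by Pearson correlation of log2 CPM with Nr1d1 over the 8 libraries, the other 9 stood between rank 6648 (Cry2, r = 0.07) and rank 14099 (Per2, r = -0.58) of 14965. In the order for Dbp, they stood between rank 3427 (Tef, r = 0.17) and rank 12967 (Npas2, r = -0.26). These 8 points share the libraries' depth and length trends, and they describe these hearts only.

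Of 23 further genes of the clock pathway, all tested, 1 was called lower in DE (Bhlhe41) and 2 higher (Per1 and Timeless), where 2.22% and 3.58% of all tested genes were. The median log2 fold change of the 23 was -0.04. In 4 genes the groups did not overlap, 2 lower and 2 higher, where 7.25% and 7.43% of all tested genes did not, namely these 3 and Btrc, a ubiquitin ligase subunit named here after its values were seen (log2 fold change -0.19, edgeR adjusted p = 0.232).

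Per1 encodes a further PER repressor and is induced by light, glucocorticoid and stress signals as well as by the clock. It carries both an E-box and a D-box in the stretch printed above, and its other window held no motif. Ciart and Bhlhe41 also held an E-box, Timeless a D-box and Arntl a RORE. Over the 24 windows of pathway genes, 12.5% held an E-box, 8.33% a D-box and 4.17% a RORE. Per1 was at 102.9, 101.6, 103.8 and 64.5 CPM in FA replicates 2, 3, 4 and 6 and at 169.1, 154.2, 160.6 and 183.4 CPM in DE replicates 1, 3, 5 and 7. All DE libraries exceeded all FA libraries, and FA replicate 6 stood below the other 3. Per1 rose 1.79-fold (log2 fold change 0.84, SE 0.15, edgeR adjusted p = 0.010), and within prefix 11 it was also called (0.91, adjusted p = 0.028). It was called in 20 of 21 alternatives, the exception being the test with the 25% difference built in (adjusted p = 0.065). Per2 and Per3, with log2 fold changes of 0.05 and -0.49, were not called higher.

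**Figure D5:**
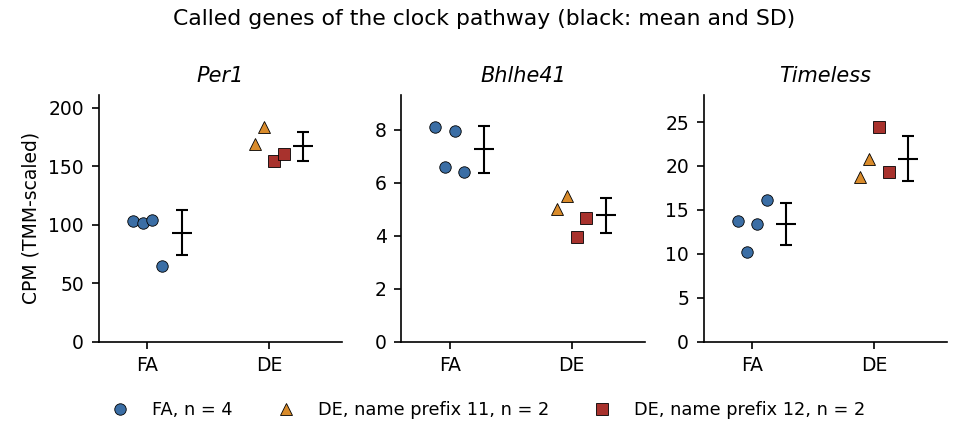
Level (y axis, TMM-scaled CPM, from 0) of the 3 called genes of the clock pathway list in FA and DE (x axis), with circles for FA, triangles and squares for DE of prefix 11 and 12, and black bars for mean and SD (n = 4). In each gene the 4 DE points lie on one side of the 4 FA points, above them in Per1 and Timeless and below them in Bhlhe41.

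Bhlhe41 (DEC2), a repressor at E-boxes, ran from 6.39 to 8.10 CPM in FA and from 3.93 to 5.49 CPM in DE without overlap. It fell by 0.61 on the log2 scale (SE 0.15, edgeR adjusted p = 0.038). Timeless, which in mammals is best known for protecting replication forks, ran from 10.2 to 16.1 CPM in FA and from 18.7 to 24.4 CPM in DE, and it rose by 0.64 (SE 0.15, edgeR adjusted p = 0.030). Neither held within prefix 11 alone (-0.48 with adjusted p = 0.187 for Bhlhe41, and 0.56 with adjusted p = 0.118 for Timeless). Leaving out FA replicate 2, 3 or 4 or DE replicate 3 also ended both calls, as did leaving out DE replicate 5 for Bhlhe41 and DE replicate 7 for Timeless (adjusted p between 0.051 and 0.131). With 1 library left out, the log2 fold change lay between -0.69 and -0.53 for Bhlhe41 and between 0.53 and 0.74 for Timeless.

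Arntl, the gene of BMAL1 and so of the partner of CLOCK, did not follow Clock. It lay between 18.2 and 23.7 CPM in FA and between 16.1 and 24.1 CPM in DE, with a log2 fold change of -0.05 (SE 0.14, edgeR adjusted p = 0.843, 95% interval -0.37 to 0.26). Arntl2, a low-level relative, had a log2 fold change of -0.07 (adjusted p = 0.901). Rora and Rorb, which encode activators, were low, with Rorb at 0.83 to 1.76 CPM (log2 fold change -0.26, adjusted p = 0.548) and Rora at 3.44 to 9.99 CPM in FA and 1.43 to 6.14 CPM in DE (-0.89, SE 0.48, adjusted p = 0.266). Rora varied more between libraries than 99.1% of tested genes, and between DE libraries of the 2 prefixes it was called, with a log2 difference of -1.89 for prefix 12 (edgeR adjusted p = 0.046). Its log2 fold change of DE against FA was -0.20 both with the prefix as a term and within prefix 11.

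Of the remaining repressors, Ciart, which inhibits the CLOCK and BMAL1 pair, ran from 2.54 to 3.98 CPM in FA and from 3.39 to 5.74 CPM in DE (log2 fold change 0.53, SE 0.20, edgeR adjusted p = 0.128). With the prefix as a term and within prefix 11 its log2 fold change was 0.26. Bhlhe40 (DEC1) and Nfil3 (E4BP4), the D-box repressor that competes with DBP and TEF, had log2 fold changes of 0.05 each (adjusted p = 0.774 and 0.803). Hlf, a PAR bZIP factor like Dbp and Tef, had -0.23 (adjusted p = 0.392). The 12 remaining genes, which encode kinases and ubiquitin ligases of PER and CRY turnover, corepressors of REV-ERB and clock-controlled enzymes, had 0 calls in this fit, and 1 of them (Ncor1, a corepressor of REV-ERB) had an unadjusted p under 0.05. Ncor1 was named after its values were seen, with a log2 fold change of -0.35 (edgeR adjusted p = 0.191).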

How the data were processed

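The authors selected poly-A RNA, made stranded libraries, aligned reads to mm10 with Tophat, marked duplicates without removing them and used featureCounts. The deposited table holds unnormalized counts, 1 row per Entrez gene. The counting annotation, strand setting and handling of multiply mapped reads are not given in the sources used here, and they bear on genes with overlapping exons. Duplicates in the counts are not independent molecules.

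Counts of 8 libraries were tested with edgeR 4.0.16 in R 4.3.3 (filterByExpr with a minimum of 10 counts, TMM, glmQLFit and glmQLFTest, exposure as the only term, Benjamini-Hochberg). Intervals at 95% and SEs come from this fit. Symbols matched 25275 of 27179 genes. Exon lengths and GC content came from GENCODE vM21 on GRCm38, with values for 92.5% of tested genes. Offsets were splines with 5 degrees of freedom in GC content and the length of the longest transcript, fitted together. Alternatives were DESeq2 1.42.0, the likelihood ratio test, limma-voom (limma 3.58.1), a 25% difference built into the test, other factors and filters, the prefix, offsets, and each library left out. Code was tested on simulated data. Named genes were the 10 clock genes, every called pathway gene, the partners, further repressors and Hlf, genes overlapping a clock gene, and the 5 genes most like Nr1d1 and Dbp. Of the pathway list, 1 gene is not reported here. Members, lists and tests were chosen with earlier results of these data known. Labels name no litters, so p-values measure the spread between these hearts. No pair of libraries of the same group agreed within sampling noise, and pairs between groups were not compared. FA replicates 2 and 4 were the closest pair, with a chi-square per gene of 5.06, beside 16.0 to 62.8 in the other pairs.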

Additional observations from a re-analysis of the deposited data

Results flagged for a closer look

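In 4 of the 42 groups of 4 libraries checked (10 clock genes and 11 pathway genes, in FA and in DE), 1 library lay apart from the other 3 by Dixon's criterion, which chance meets in about 1 of 20 groups. Cry1 was at 54.2 CPM in DE replicate 7, beside 43.9 to 45.4 CPM in the other DE libraries. Dbp was at 6.53 CPM in DE replicate 5, beside 7.69 to 7.78 CPM. Arntl was at 23.7 CPM in FA replicate 3, beside 18.2 to 18.4 CPM. Per1 was at 64.5 CPM in FA replicate 6, beside 101.6 to 103.8 CPM. Without FA replicate 6, Per1 was called again (0.70). The cause was not tested for any of them.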

How the results depend on the processing

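Clock kept its direction in all 21 alternatives and its call in 11. The call was lost with the 25% difference built in (-0.78, adjusted p = 0.228), RLE factors (-0.78), library totals alone (-0.71, adjusted p = 0.057), the prefix as a term (-0.46, adjusted p = 0.170) and prefix 11 only (-0.46). Leaving out 1 library gave -0.95 to -0.65, with 3 of 8 fits called. The number of clock genes called lower (1) was 2 by DESeq2, the likelihood ratio test and offsets, 0 with the 25% difference, RLE factors, library totals, the prefix term and prefix 11 only, and 0 to 2 with 1 library left out, and the number called higher was 0 in every alternative. Pathway genes called lower (1) and higher (2) were 0 and 0 with the 25% difference, 0 and 1 with the prefix term and prefix 11 only, 1 and 3 with offsets (Nampt in addition, 0.33, adjusted p = 0.035), and 0 to 1 and 1 to 2 with 1 library left out. Over all genes, 868 calls became 1613 by DESeq2, 1603 by the likelihood ratio test, 114 with the 25% difference, 448 with the prefix term, 260 with prefix 11 only, 1546 with offsets, and 237 to 1168 without 1 library. Calls were 332 lower and 536 higher, against 217 and 803 with library totals alone and 748 and 798 with offsets.

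Some differences changed sign, most of them near 0. With the prefix term, prefix 11 only and offsets, Nr1d1 went to -0.017, -0.021 and -0.081 and Nfil3 to -0.13, -0.13 and -0.093. Dbp went to -0.0014 by DESeq2, -0.0088 by limma-voom and -0.22 with offsets. With library totals, the prefix term and prefix 11 only, Arntl went to 0.016, 0.022 and 0.018 and Arntl2 to 0.00042, 0.27 and 0.26. Hlf went from -0.23 to 0.030 with the prefix term and 0.025 with prefix 11 only, and Rorb from -0.26 to 0.025 with offsets. Without 1 library Per2 ran from -0.063 to 0.14, Nr1d1 from -0.038 to 0.071, Dbp from -0.091 to 0.064, Tef from -0.033 to 0.097, Arntl from -0.19 to 0.045, Arntl2 from -0.26 to 0.12, Bhlhe40 from -0.0091 to 0.12 and Nfil3 from -0.021 to 0.11. Bhlhe41 and Timeless kept their call in 13 of 21 alternatives each. The cause of these changes was not tested. No paired analysis was made, since the labels name no pairs of FA and DE hearts. The hour of collection was not tested.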

Other observations

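Of the 10 clock genes, 4 share exon bases with another gene on the opposite strand in GENCODE vM21, and without a stated strand setting their reads cannot be told apart. Dbp shares 539 bases (18.0% of its exons) with Sphk2 (log2 fold change 0.06, edgeR adjusted p = 0.771), Nr1d1 shares 263 bases (8.55%) with Thra (-0.13, adjusted p = 0.554), Cry2 shares 295 bases (4.67%) with D930015M05Rik (-0.13, adjusted p = 0.895) and Tef shares 193 bases (2.45%) with Gm17597. None of the overlapping genes that were tested was called.

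The 5 tested genes most like Nr1d1 over the 8 libraries were Ube2d1 (Pearson r = 0.91), Tcf7l2, Gpr75, Mir208a and Gm11793 (0.90). Those most like Dbp were Scd3 (r = 0.996), Chrd, Agmo, 2410022M11Rik and Ccin (0.87). Scd3 ran from 0.06 to 0.48 CPM, so its values rest on few counts, and these orders describe 8 libraries of 2 groups.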
